A study of Homo sapiens with 36 samples.

Results

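The 10 genes described here are the mesenchymal markers VIM, CDH2, ACTA2 and TAGLN and the matrix and matricellular genes FN1, TNC, SPARC, THBS1, CCN1 and CCN2. They were taken by their symbols from the 63677 genes in the count tables, and all 10 were among the 19180 genes with enough counts to be tested. The list was drawn with earlier results of these data known, and the late fall of FN1 was named when it was drawn, so that the FN1 values after withdrawal are a description, and nothing is read from whether they pass a threshold. The cells were A549, an established human line of non-small cell lung cancer. The treated arm was grown in RPMI medium with 10% FBS and IL-1β at 1 ng/ml, an inflammatory cytokine, for 6, 15 or 21 days, or for 21 days followed by 6, 15 or 30 days in medium without it. The other arm was grown without IL-1β beside it and collected at the same 6 times, so that each control shares the culture time of its treated group. Each of the 12 groups held 3 replicates, which the labels call biological and which do not say whether cultures were started separately, and all 36 samples come from a single cell line in culture. The p-values therefore measure the spread between these samples, which may be technical.

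An epithelial-to-mesenchymal transition (EMT) is the shift in which epithelial cells lose their junctions and take up the shape, motility and matrix production of mesenchymal cells. Vimentin, the intermediate filament protein encoded by VIM, and N-cadherin, the adhesion molecule encoded by CDH2, are the usual markers of the gain, whereas smooth muscle actin (ACTA2) and transgelin (TAGLN) mark contractile cells such as myofibroblasts. Matricellular proteins are secreted into the matrix, where they tune how cells attach and signal rather than bear load, and most are low in resting tissue and abundant in wounds and tumours. CCN1 and CCN2 are best known as targets of YAP and TAZ, the co-activators that act through TEAD transcription factors.

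The sequences before the start sites of 5 of these genes are shown because FN1 took another course than the matricellular genes, and because a TEAD motif is known upstream of CCN2. The 250 bases before the annotated start are from RefSeq on GRCh38.p14, which is a later build than the GRCh37 of the count tables, and 8 of the 10 members had an entry, with 10 windows in all, and TAGLN and CCN1 had none. Capitals mark GGAATG on either strand, the core bound by TEAD factors, and in FN1 they mark TGACGTCA, the cAMP response element (CRE).
CCN2, chr6:131951373-131951622, minus strand: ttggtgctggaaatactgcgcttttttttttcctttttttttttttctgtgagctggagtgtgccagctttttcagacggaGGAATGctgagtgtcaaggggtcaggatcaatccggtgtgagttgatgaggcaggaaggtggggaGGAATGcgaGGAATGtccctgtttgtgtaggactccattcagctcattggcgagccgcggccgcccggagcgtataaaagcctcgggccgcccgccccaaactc
THBS1, chr15:39580829-39581078, plus strand: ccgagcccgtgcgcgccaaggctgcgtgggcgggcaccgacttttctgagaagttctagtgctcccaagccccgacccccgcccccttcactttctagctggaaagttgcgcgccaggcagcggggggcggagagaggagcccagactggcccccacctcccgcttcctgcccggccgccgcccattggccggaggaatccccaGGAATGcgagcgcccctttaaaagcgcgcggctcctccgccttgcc
SPARC, chr5:151686916-151687165, minus strand: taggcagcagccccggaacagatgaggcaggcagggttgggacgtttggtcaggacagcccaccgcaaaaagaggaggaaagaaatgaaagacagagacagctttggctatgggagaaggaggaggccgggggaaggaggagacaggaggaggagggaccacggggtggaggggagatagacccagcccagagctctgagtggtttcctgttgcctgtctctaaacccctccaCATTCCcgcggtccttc
FN1, chr2:215436069-215436318, minus strand: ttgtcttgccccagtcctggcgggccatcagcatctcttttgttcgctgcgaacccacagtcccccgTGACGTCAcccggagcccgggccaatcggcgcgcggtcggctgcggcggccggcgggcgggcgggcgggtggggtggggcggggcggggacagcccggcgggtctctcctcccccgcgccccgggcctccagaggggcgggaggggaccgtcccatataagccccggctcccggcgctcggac
TNC, chr9:115118158-115118407, minus strand: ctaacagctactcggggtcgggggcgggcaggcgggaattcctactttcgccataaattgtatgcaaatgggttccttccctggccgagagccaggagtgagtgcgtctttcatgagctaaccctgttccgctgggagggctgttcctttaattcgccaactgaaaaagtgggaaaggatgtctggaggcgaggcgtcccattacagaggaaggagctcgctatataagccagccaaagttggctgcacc
CCN2 held GGAATG 3 times, starting 169, 104 and 95 bases before the start. THBS1 held it once, 46 bases before the start, and SPARC held it once on the opposite strand, 17 bases before the start. Of all 35116 RefSeq windows of this length, 11.9% held GGAATG, and of the 10 member windows 4 did, including the further downstream of the 2 ACTA2 windows, 183 bases before its start. FN1 alone among the members held the CRE, which is in 1.65% of all windows, 183 bases before its start. TNC held no exact match to any of the motifs searched, and near matches were not counted in any window. The AP-1 motif TGANTCA, in 6.57% of all windows, was in 1 CDH2 window. The NF-κB motif was searched as GGGRNNYYCC (R for A or G, Y for C or T, N for any base) and was in 9.96% of all windows. Among the members it was in CCN2 on the opposite strand, where it overlaps the TEAD match nearest to the start. The TNC window holds GGGAATTCCT, which differs from this motif in the last base. The share of all windows with such a near match is not given here. CAGGTG, the E-box bound by SNAI factors, is in 17.5% of all windows and was in no member window. The CArG box bound by SRF, searched as CCWWWWWWGG (W for A or T) and in 1.16% of all windows, was in no member window either. These matches describe the letters of the windows and no relation to expression was tested.

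In total, 9116032 to 23570026 reads were counted on genes per library. In 11 of the 36 libraries, 11.8% to 24.6% of the counts lay on mitochondrial genes, against 5.61% to 7.75% in the other 25. Of these 11, 6 were control and 5 IL-1β libraries, 8 were labelled replicate 2, and 8 were collected after withdrawal, where control replicates 1 and 2 at day 6 and control replicates 2 and 3 at day 15 belong to them. Leaving these libraries out thus leaves 1 control library at each of these 2 times, which is assumed to vary like the other groups. Levels are given below as CPM, the counts-per-million scale, with TMM scaling, and "both thresholds" means an adjusted p under 0.05 in edgeR's quasi-likelihood test with a fold change over 2. The epithelial keratins KRT8 and KRT18 had median levels of 3199 and 1700 CPM in control libraries, and E-cadherin (CDH1) 236 CPM, while EPCAM stood at 1.03 CPM and KRT19 at 0.0622 CPM. The summed level of the 5 epithelial markers was 2901 to 7624 CPM in the control libraries and 899 to 5142 CPM in the IL-1β libraries. The summed level of the 7 fibroblast markers was 1.03 to 4.20 CPM in control and 1.36 to 3.42 CPM in IL-1β libraries, most of it COL1A1, with the median of COL3A1, LUM and THY1 at 0 in both arms. Endothelial and leukocyte markers summed to at most 0.232 and 0.696 CPM.

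In untreated A549 cells the markers that define mesenchymal cells differed widely in level. Compared per length of exon, as RPKM, in which counts are scaled to exon length and library size (mean ± SD over the 18 control libraries), VIM led with 145.7 ± 32.2, followed by CCN1 with 22.0 ± 5.57, FN1 with 13.7 ± 4.18 and CDH2 with 12.7 ± 1.73. CCN2 at 5.93 ± 1.47, THBS1 at 4.997 ± 1.12 and ACTA2 at 2.26 ± 0.665 RPKM came next. TAGLN at 0.251 ± 0.0801, TNC at 0.129 ± 0.0718 and SPARC at 0.0455 ± 0.0308 RPKM were near the limit of detection, and SPARC had between 0 and 9 counts in each control library. The ranges over libraries overlapped between each neighbour in this order, except that VIM stood clear of CCN1, CDH2 of CCN2 and ACTA2 of TAGLN. VIM was thus abundant without IL-1β, whereas TNC and SPARC were scarcely expressed.

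Of the 10 genes, 2 rose past both thresholds at day 6 of IL-1β (TNC and CCN1), 2 at day 15 (TNC and SPARC) and 4 at day 21 (TNC, SPARC, CCN1 and CCN2), and no member was lower past both thresholds at these times. Over all genes tested, 1.52%, 1.94% and 2.19% rose by the same thresholds at days 6, 15 and 21. After withdrawal, 2 members were higher at day 6 (TNC and THBS1), 1 at day 15 and 1 at day 30 (TNC at both), against 1.08%, 0.594% and 0.433% of all genes. In RNA from whole cultures, a change in the share of expressing cells and a change in RNA per cell cannot be told apart. The count of lower members at days 15 and 30 after withdrawal was 1, FN1, where 0.36% and 0.464% of all genes were lower. This count follows from how FN1 was chosen. The median log2 fold change of the 10 members was 0.36, 0.64 and 0.85 at days 6, 15 and 21 and 0.96, 0.50 and 0.22 at days 6, 15 and 30 after withdrawal, while that of all genes tested lay between -0.02 and 0.02. With SPARC set to its lower bound where its controls were at the floor, these medians were the same.

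**Figure D1:**
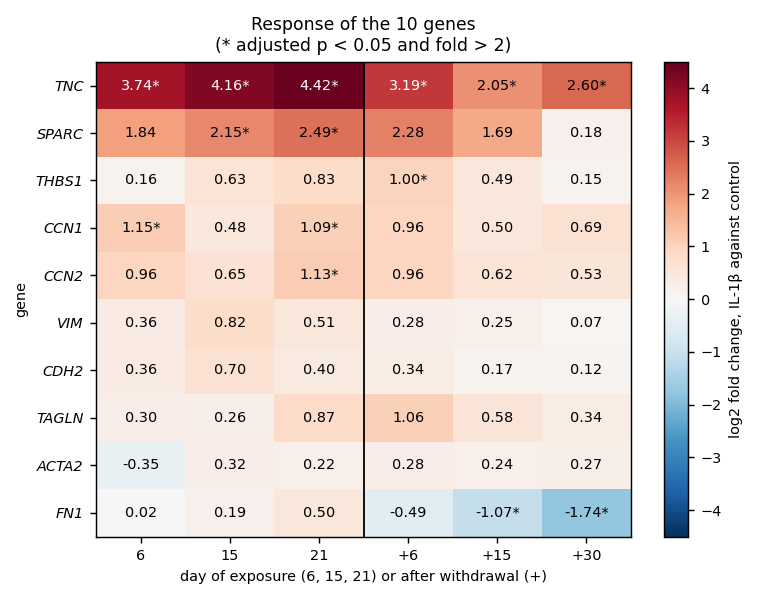
Log2 fold change of IL-1β against control (colour and number) for the 10 genes (rows) at days 6, 15 and 21 of exposure and days 6, 15 and 30 after withdrawal (columns, split by the line). Asterisks mark both thresholds; TNC carries one at all 6 times and FN1 goes from 0.50 at day 21 to -1.74 at day 30 after withdrawal. The SPARC numbers at days 6 and 15 after withdrawal are fitted values against controls at 3 or fewer counts.

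All 3 IL-1β libraries lay above all 3 control libraries for 5, 6 and 9 of the 10 members at days 6, 15 and 21, and ACTA2 was the exception at day 21. For all genes tested this share was 10.6%, 11.5% and 13.8%. At days 6, 15 and 30 after withdrawal 5, 5 and 0 members were above in this way, against 5.51%, 6.02% and 6.78% of all genes. Among the 5 at day 6 was SPARC, where replicate 2 held 3 counts in both arms (0.259 CPM in control, 0.348 CPM in withdrawn cells). Its groups were thus set apart at that time only by the scaling for library size. The 1 member below in all 3 libraries at days 6, 15 and 30 after withdrawal was FN1, whose late fall was known when it was chosen. Of all genes, 5.24%, 4.9% and 5.11% were below.

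TNC, which encodes tenascin-C, a matricellular glycoprotein of wounds and tumour stroma, had the largest log2 fold change of the 10 genes at each of the 6 times. The gene lies on GRCh37 at chr9:117781854-117880486, minus strand. Its identifier is ENSG00000041982. At day 6 its level was 0.850, 0.696 and 0.650 CPM in the 3 control libraries and 9.38, 8.92 and 11.2 CPM in the IL-1β libraries. By day 15 the controls stood at 1.89, 1.79 and 0.445 CPM and the IL-1β libraries at 23.7, 25.6 and 24.2 CPM. At day 21 the controls were at 2.17, 1.69 and 1.55 CPM and the IL-1β libraries at 35.6, 38.7 and 41.1 CPM. All treated libraries were above all controls, and the treated level was higher at each later collection. On the log2 scale the difference was 3.74 ± 0.535 (SE, adjusted p = 2.37e-05), 4.16 ± 0.51 (adjusted p = 1.64e-06) and 4.42 ± 0.51 (adjusted p = 5.79e-07), respectively, a 21.3-fold difference at day 21. The response at day 21 was not distinguishable from that at day 6, with a log2 difference of 0.68 ± 0.71 (adjusted p = 0.9999).

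After withdrawal, TNC stayed higher in the cells once exposed. At day 6 the controls had 2.06, 1.73 and 0.687 CPM and the withdrawn cells 15.0, 13.6 and 9.91 CPM, a log2 fold change of 3.19 ± 0.51 (adjusted p = 0.000289). After 15 days the values were 2.27, 1.53 and 0.508 CPM against 7.44, 7.27 and 3.91 CPM, a log2 fold change of 2.05 ± 0.50 (adjusted p = 0.0297). At day 30 the controls had 0.377, 1.16 and 0.197 CPM and the withdrawn cells 3.87, 3.97 and 0.982 CPM, a log2 fold change of 2.60 ± 0.58 (adjusted p = 0.0173). Here the groups overlapped, since replicate 3 of the withdrawn cells was below replicate 2 of the control. The day 30 controls held 7, 9 and 4 counts. From day 15 to day 30 the mean went from 1.44 to 0.577 CPM in the controls and from 6.21 to 2.94 CPM in the withdrawn cells. The lower level of the controls thus enters the log2 fold change at day 30. Without replicate 1 of every group the adjusted p 6, 15 and 30 days after withdrawal was 0.121, 0.54 and 0.835, and without replicate 2 it was 0.377 at day 15 and 0.286 at day 30, with log2 fold changes between 1.89 and 3.01 at these 2 times. When the libraries of high mitochondrial share were dropped, the day 15 value was 1.30, against 1 control library, which is too few to judge it by. The day 30 value was 2.98 (adjusted p = 0.0465). The log2 difference of the response at day 30 after withdrawal from that at day 21 was -1.82 ± 0.78 (adjusted p = 0.666).

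**Figure D2:**
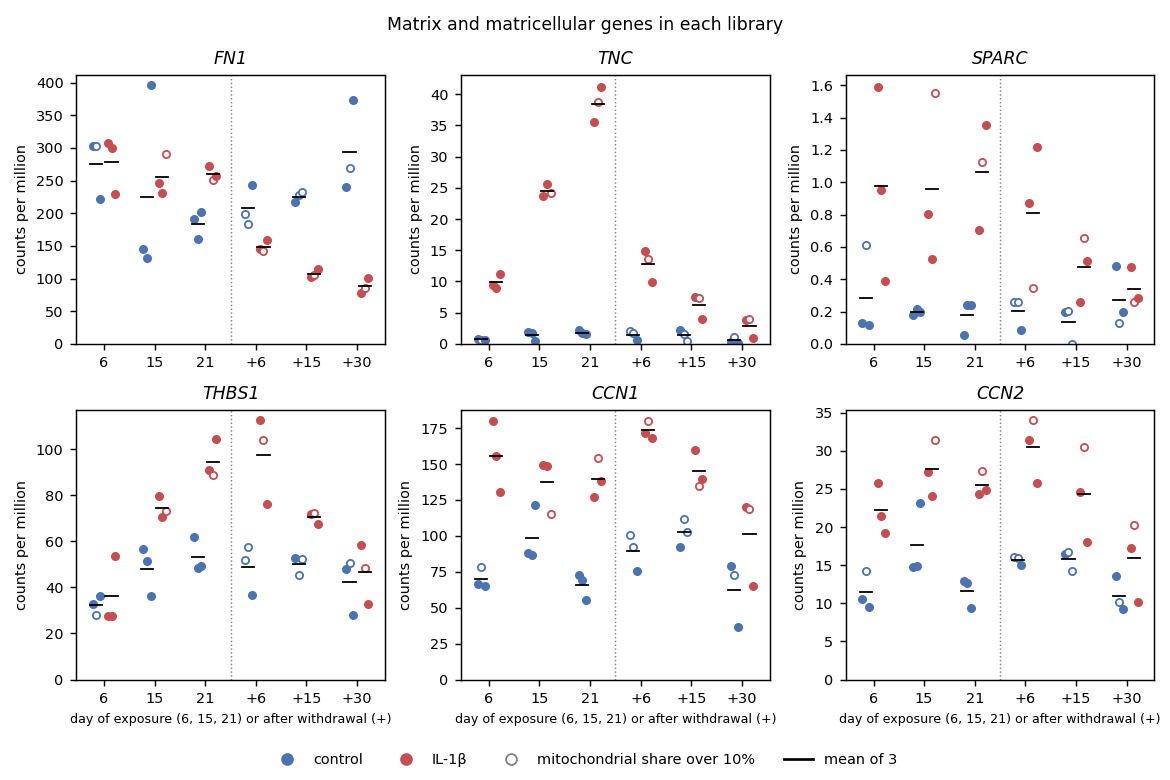
Level in CPM (vertical axes, linear and from 0) of 6 matrix genes in each of the 36 libraries, for control (blue) and IL-1β (red) at the 6 collections (horizontal axis, + marks days after withdrawal). Points are libraries, open where the mitochondrial share exceeds 10%, and bars are means of 3; the TNC points of the IL-1β arm reach 41.1 CPM at day 21, and the FN1 points after withdrawal lie below the control at all 3 times.

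SPARC, or osteonectin, a collagen-binding matricellular protein, was measured from few reads (ENSG00000113140, chr5:151040657-151066536, minus strand). At day 6 the controls held 2, 7 and 2 counts (0.131, 0.609 and 0.118 CPM) and the IL-1β libraries 23, 13 and 8 counts (1.59, 0.950 and 0.390 CPM), so that the groups overlapped. The day 15 controls had 0.177, 0.217 and 0.198 CPM and the IL-1β libraries 0.801, 0.523 and 1.55 CPM, with a log2 fold change of 2.15 ± 0.63 (adjusted p = 0.0359). At day 21 they had 0.0570, 0.241 and 0.239 CPM against 0.706, 1.12 and 1.35 CPM, with a log2 fold change of 2.49 ± 0.61 (adjusted p = 0.0085). Treated libraries lay above all controls at days 15 and 21. At days 6 and 15 after withdrawal all 3 controls held 3 counts or fewer, which was taken as the floor. The mean of the withdrawn cells, 0.813 and 0.475 CPM, was 3.15-fold and 1.77-fold the level of 3 counts per library. Its fold over the control mean was therefore at least as large. The withdrawn libraries held 16, 3 and 21 counts at day 6, with replicate 2 itself at the floor, and 4, 9 and 11 counts at day 15. The differences from control at these 2 times did not pass the test (adjusted p = 0.089 and 0.538). At day 30 after withdrawal, 0.475, 0.260 and 0.281 CPM stood against 0.484, 0.129 and 0.197 CPM in the control, and the groups overlapped (log2 fold change 0.18 ± 0.69). Without replicate 1, 2 or 3 in turn SPARC passed both thresholds at neither day 15 (adjusted p = 0.264, 0.0628 and 0.361) nor day 21 (adjusted p = 0.184, 0.0611 and 0.0685), with log2 fold changes between 1.72 and 2.65. With the high-mitochondrial libraries dropped it passed both thresholds at day 6 (2.86, adjusted p = 0.0144) and not at day 15 (1.73, adjusted p = 0.0841). At day 6 after withdrawal it passed with these libraries dropped, against 1 control library (adjusted p = 0.0414), and with the share as a term (adjusted p = 0.032).

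THBS1 encodes thrombospondin-1, a matricellular protein that can activate latent TGF-β and that binds CD36 and CD47 (ENSG00000137801, chr15:39873280-39891667, plus strand). It did not pass the test at day 6, where the controls had 32.7, 27.9 and 36.4 CPM and the IL-1β libraries 27.5, 27.6 and 53.6 CPM (log2 fold change 0.16 ± 0.24, adjusted p = 0.958). By day 15 the values were 56.6, 51.5 and 36.4 CPM against 79.8, 70.7 and 73.2 CPM, and at day 21 they were 61.8, 48.5 and 49.3 CPM against 90.8, 88.6 and 104.2 CPM. The groups did not overlap at either time, and the log2 fold change was 0.63 ± 0.24 (adjusted p = 0.144) and 0.83 ± 0.24 (adjusted p = 0.0353). It was largest at day 6 after withdrawal, with 51.8, 57.7 and 36.5 CPM in control and 112.6, 103.8 and 76.3 CPM in withdrawn cells, where the fold of 2.01 just passed the threshold (log2 fold change 1.00 ± 0.245, adjusted p = 0.0179). At day 15 after withdrawal 52.7, 45.2 and 52.4 CPM stood against 71.9, 72.4 and 67.4 CPM, still without overlap (log2 fold change 0.495 ± 0.24, adjusted p = 0.58). At day 30 it was 0.15 ± 0.24 and the groups overlapped. The difference at day 6 after withdrawal did not pass both thresholds when replicate 1, 2 or 3 was left out of every group (log2 fold change 0.94, 1.08 and 0.98, adjusted p = 0.645, 0.187 and 0.0015). With the high-mitochondrial libraries dropped it was 1.38, where 2 libraries stand against 1 control, the lowest of the 3, which is too few to judge it by.

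CCN1 (CYR61) and CCN2 (CTGF) encode secreted proteins that bind integrins and matrix, and their log2 fold changes over the 6 times ranged from 0.48 to 1.15 and from 0.53 to 1.13. They lie on GRCh37 at ENSG00000142871, chr1:86046444-86050272, plus strand, and at ENSG00000118523, chr6:132269316-132272512, minus strand. CCN1 stood at 66.8, 78.5 and 65.3 CPM in the controls at day 6 and at 180.3, 155.5 and 130.9 CPM with IL-1β, a log2 fold change of 1.15 ± 0.22 (adjusted p = 0.00127). At day 15 its groups overlapped, with 87.8, 86.8 and 121.6 CPM against 149.1, 148.5 and 115.4 CPM (log2 fold change 0.48 ± 0.22, adjusted p = 0.253). At day 21 it had 72.9, 69.0 and 55.6 CPM against 127.3, 154.1 and 138.4 CPM, a log2 fold change of 1.09 ± 0.22 (adjusted p = 0.0016). Without replicate 1 or 2 of every group it no longer passed at day 6 (log2 fold change 1.01 and 1.25, adjusted p = 0.228 and 0.0519) or at day 21 (1.24 and 1.05, adjusted p = 0.063 and 0.0898), and without replicate 3 it was just under the fold threshold at day 21 (0.99, adjusted p = 0.000442). In the IL-1β arm at day 15, the library below the highest control was replicate 3, which is among those of high mitochondrial share.

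After withdrawal CCN1 was 1.94-fold higher at day 6 (log2 fold change 0.96 ± 0.22, adjusted p = 0.0116), with 100.4, 92.0 and 75.4 CPM in control and 171.8, 180.3 and 168.5 CPM in withdrawn cells. The adjusted p was 0.315 without replicate 1 and 0.263 without replicate 2, and with the mitochondrial share as a term the value passed both thresholds (1.02, adjusted p = 0.00224). With the high-mitochondrial libraries dropped the log2 fold change was 1.18, against 1 control library, which is too few to judge it by. The difference was 0.50 ± 0.22 (adjusted p = 0.48) after 15 days and 0.69 ± 0.22 (adjusted p = 0.165) after 30 days. With the replicate numbers, which were taken to pair the samples at day 30, as a block within each time point, the latter was 0.72 (adjusted p = 0.0201). At day 30 replicate 3 was low in both arms, with 36.3 CPM in control and 65.2 CPM in withdrawn cells, while the other 2 controls had 79.2 and 72.4 CPM and the other 2 withdrawn libraries 120.0 and 118.4 CPM.

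CCN2 had 10.6, 14.3 and 9.45 CPM in control and 25.8, 21.5 and 19.2 CPM with IL-1β at day 6 (log2 fold change 0.96 ± 0.23, adjusted p = 0.0106), which is a fold of 1.94 and thus under the fold threshold. CCN2 values at day 15 were 14.7, 14.9 and 23.1 CPM against 27.3, 24.1 and 31.4 CPM (log2 fold change 0.65 ± 0.23, adjusted p = 0.0928). At day 21 they were 12.9, 12.7 and 9.40 CPM against 24.3, 27.3 and 24.9 CPM, a log2 fold change of 1.13 ± 0.23 (adjusted p = 0.00144). Treated libraries lay above all controls at each of these times. Without replicate 1 the day 21 difference was not past the threshold (1.24, adjusted p = 0.11), and with either the high-mitochondrial libraries or replicate 2 left out, the day 6 difference was past both thresholds (1.16 and 1.18, adjusted p = 0.00404 and 0.0369), whereas without replicate 1 it was 0.80 (adjusted p = 0.635). After withdrawal the log2 fold change was 0.96 ± 0.23 (adjusted p = 0.0156), 0.62 ± 0.23 (adjusted p = 0.277) and 0.53 ± 0.23 (adjusted p = 0.484) at days 6, 15 and 30, and the groups overlapped at day 30. The adjusted p at day 6 after withdrawal was 0.609 without replicate 1 and 0.228 without replicate 2, and the value passed both thresholds without replicate 3 (1.03, adjusted p = 0.00561) and with the mitochondrial share as a term (1.03, adjusted p = 0.00132). With the high-mitochondrial libraries dropped it was 0.94, under the fold threshold, against 1 control library. CCN1, CCN2 and THBS1 are not independent in these values, since all 3 were measured in the same libraries.

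FN1 encodes fibronectin, the glycoprotein that cells assemble into fibrils of the provisional matrix and that is commonly listed among mesenchymal markers (ENSG00000115414, chr2:216225163-216300796, minus strand). During exposure its groups lay close together. The controls had 303.3, 302.9 and 221.9 CPM at day 6 and the IL-1β libraries 308.2, 300.1 and 229.1 CPM, a log2 fold change of 0.02 ± 0.25. At day 15 the controls had 144.9, 131.5 and 396.5 CPM, the last being well above the other 2 and above all IL-1β libraries at 246.6, 230.9 and 290.9 CPM (log2 fold change 0.19 ± 0.25, and 0.80 without replicate 3). At day 21 the controls had 190.8, 160.7 and 201.2 CPM and the IL-1β libraries 271.6, 251.6 and 256.6 CPM, all 3 above the controls (log2 fold change 0.50 ± 0.25). In the fit of all libraries none of these 3 differences passed the test (adjusted p = 0.9987, 0.714 and 0.409).

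After withdrawal the FN1 level of the withdrawn cells lay below that of the controls. At day 6 the controls had 199.0, 183.0 and 243.9 CPM and the withdrawn cells 145.4, 141.8 and 158.5 CPM, a log2 fold change of -0.49 ± 0.25. At day 15 the values were 216.6, 227.6 and 232.4 CPM against 102.0, 104.9 and 114.4 CPM (-1.07 ± 0.26), and at day 30 they were 239.5, 269.4 and 374.1 CPM against 78.2, 85.2 and 101.2 CPM (-1.74 ± 0.26). FN1 was thus 2.11-fold and 3.34-fold lower in the withdrawn cells at days 15 and 30, with no overlap at any of the 3 times. The mean level of the withdrawn cells fell from 148.6 CPM at day 6 to 107.1 and 88.2 CPM at days 15 and 30. The control means varied as well, with 276.0, 224.3 and 184.2 CPM during exposure and 208.6, 225.5 and 294.3 CPM after withdrawal. The controls at day 30 after withdrawal differed from those at day 6 of exposure by a log2 fold change of 0.09 ± 0.25. The log2 response at day 30 after withdrawal was 2.23 below that at day 21. Both the lower level of the withdrawn cells and the higher level of the controls enter this difference. Under all alternatives tried, the FN1 log2 fold change lay between -1.11 and -1.0 at day 15 and between -1.80 and -1.66 at day 30 after withdrawal.

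**Figure D3:**
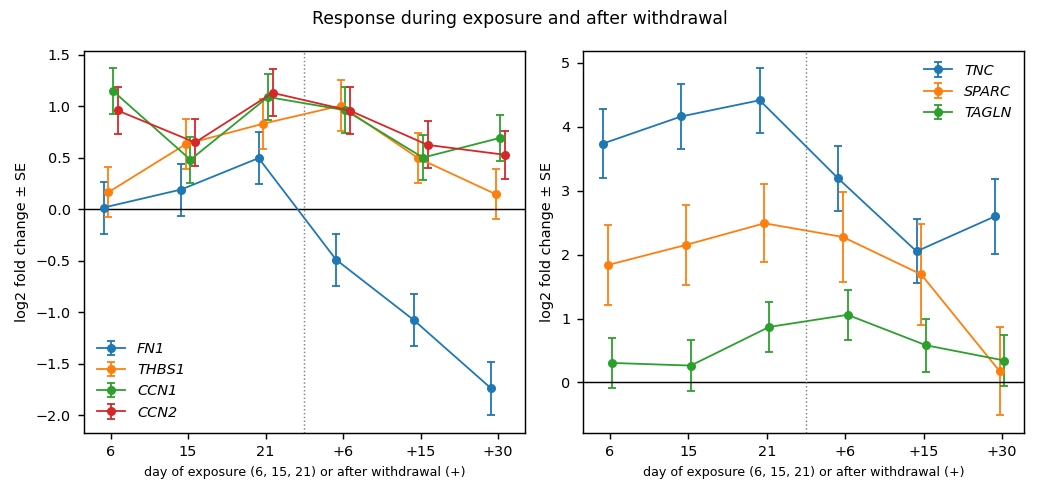
Log2 fold change of IL-1β against control ± SE (vertical axis, 3 libraries per group) at days 6, 15 and 21 of exposure and, right of the dotted line, days 6, 15 and 30 after withdrawal, for FN1, THBS1, CCN1 and CCN2 (left panel) and TNC, SPARC and TAGLN (right panel, another scale). FN1 crosses 0 after withdrawal while THBS1, CCN1 and CCN2 stay above it.

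VIM (ENSG00000026025, chr10:17270240-17279592, plus strand), the most abundant of the 10 genes, did not reach a fold of 2 at any time. At day 6 the controls had 659.9, 739.9 and 563.4 CPM and the IL-1β libraries 908.0, 851.9 and 751.9 CPM. At day 15 the controls had 624.4, 614.7 and 650.6 CPM and the IL-1β libraries 866.4, 866.7 and 1599 CPM, and at day 21 they had 724.3, 711.2 and 698.2 CPM against 987.2, 1045 and 1015 CPM. All IL-1β libraries were above the controls at these times, with log2 fold changes of 0.36 ± 0.24 (adjusted p = 0.705), 0.82 ± 0.24 (adjusted p = 0.0336) and 0.51 ± 0.24 (adjusted p = 0.31). At day 15 the adjusted p was 0.27 without replicate 1 and 0.628 without replicate 3, where the log2 fold change was 0.49. After withdrawal the groups overlapped and the log2 fold change was 0.28 ± 0.24, 0.25 ± 0.24 and 0.07 ± 0.24 at days 6, 15 and 30. In the controls the VIM level differed with the mitochondrial share. The 6 controls of high share had a median of 1006 CPM (739.9 to 1064) and the other 12 a median of 655.2 CPM (563.4 to 724.3), without overlap. In the IL-1β arm the 5 libraries of high share had a median of 1354 CPM (840.7 to 1599) and the other 13 a median of 866.7 CPM (745.1 to 1015), with overlap. Of the 11 libraries of high share, 8 were collected after withdrawal, so that share and collection time are mixed. Without the libraries of high share, the log2 fold change was 0.47, 0.46 and 0.51 at days 6, 15 and 21, with adjusted p of 0.00404, 0.00301 and 0.00116. At day 6 after withdrawal the value without these libraries was 0.56, against 1 control library, which is too few to judge it by. With the share as a term the log2 fold change was 0.52, 0.60 and 0.36 at days 6, 15 and 21 (adjusted p = 0.0103, 0.0028 and 0.0884), and 0.45 at day 6 after withdrawal (adjusted p = 0.0415). In the GENCODE annotation 24.6% of the VIM exon sequence overlaps genes on the other strand, chiefly VIM-AS1, and the strand setting of the counting is not given in the sources used here.

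CDH2 (ENSG00000170558, chr18:25512843-25757910, minus strand) was expressed at a lower level. It rose at day 15 (95.5, 92.5 and 102.2 CPM in control, 141.3, 134.0 and 196.7 CPM with IL-1β), with a log2 fold change of 0.70 ± 0.17 (adjusted p = 0.00708), a fold of 1.63. Without replicate 1 or 3 of every group the adjusted p at day 15 was 0.218 and 0.121. At day 6 the groups overlapped (0.36 ± 0.17, adjusted p = 0.362) and at day 21 they did not, with 106.9, 99.4 and 109.0 CPM against 133.3, 144.1 and 138.1 CPM (0.40 ± 0.17, adjusted p = 0.219). With the replicate numbers, which were taken to pair the samples at day 21, as a block within each time point, the day 21 adjusted p was 0.032. After withdrawal CDH2 had log2 fold changes of 0.34, 0.17 and 0.12, and the groups overlapped at all 3 times. As with VIM, the 6 controls of high mitochondrial share had a higher median, 128.4 CPM, than the other 12, 98.6 CPM, and no value of the former was under 118.2 CPM or of the latter over 114.1 CPM. With the libraries of high share dropped, CDH2 had log2 fold changes of 0.51, 0.51 and 0.39 at days 6, 15 and 21 (adjusted p = 0.00331, 0.00221 and 0.0177). With the share as a term they were 0.48, 0.57 and 0.29 (adjusted p = 0.00165, 0.000212 and 0.0691), and at day 6 after withdrawal the value was 0.45 (adjusted p = 0.00522). With the libraries of high share dropped the latter was 0.50, against 1 control library, which is too few to judge it by.

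Neither contractile marker passed both thresholds at any time in the fit of all libraries by group. ACTA2 (ENSG00000107796, chr10:90694831-90751096, minus strand) was at 6.38 to 19.7 CPM over all 36 libraries, and its groups overlapped at all 6 times. Log2 fold changes of -0.35 ± 0.31 (day 6), 0.315 ± 0.315 (day 15) and 0.22 ± 0.315 (day 21) were followed by 0.28, 0.24 and 0.27 after withdrawal, with adjusted p from 0.633 to 0.9998. At day 6 replicate 3 was low in both arms, with 9.57 CPM in control and 6.38 CPM with IL-1β, while the other 4 libraries lay between 15.0 and 19.7 CPM. The intervals implied by these errors include changes of either direction, and 35.9% of the ACTA2 exon sequence overlaps ACTA2-AS1 and FAS on the other strand.

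TAGLN (ENSG00000149591, chr11:117070086-117078180, plus strand) was measured from 5 to 87 counts per library. At day 21 the controls had 1.31, 1.57 and 1.71 CPM and the IL-1β libraries 2.33, 2.47 and 3.57 CPM, without overlap, and the log2 fold change was 0.87 ± 0.39 (adjusted p = 0.278). With the replicate block within each time point, the numbers being taken to pair the samples at day 21, the adjusted p was 0.045. It was 0.0101 with the high-mitochondrial libraries dropped (log2 fold change 0.97), and with the share as a term TAGLN passed both thresholds (1.08, adjusted p = 0.00813). At day 6 after withdrawal the controls had 1.16, 1.30 and 2.49 CPM and the withdrawn cells 4.04, 1.74 and 4.81 CPM, a log2 fold change of 1.06 ± 0.39 (adjusted p = 0.229). The withdrawn library at 1.74 CPM and the controls at 1.16 and 1.30 CPM were of high mitochondrial share, and the levels of the controls of high share (median 1.23 CPM) were lower than those of the others (median 1.71 CPM). Adjusted p for TAGLN was 0.747 to 0.942 at the other times of exposure, then 0.803 (day 15 after withdrawal) and 0.859 (day 30). Of the TAGLN exon sequence, 34.1% overlaps PCSK7 on the other strand.

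**Figure D4:**
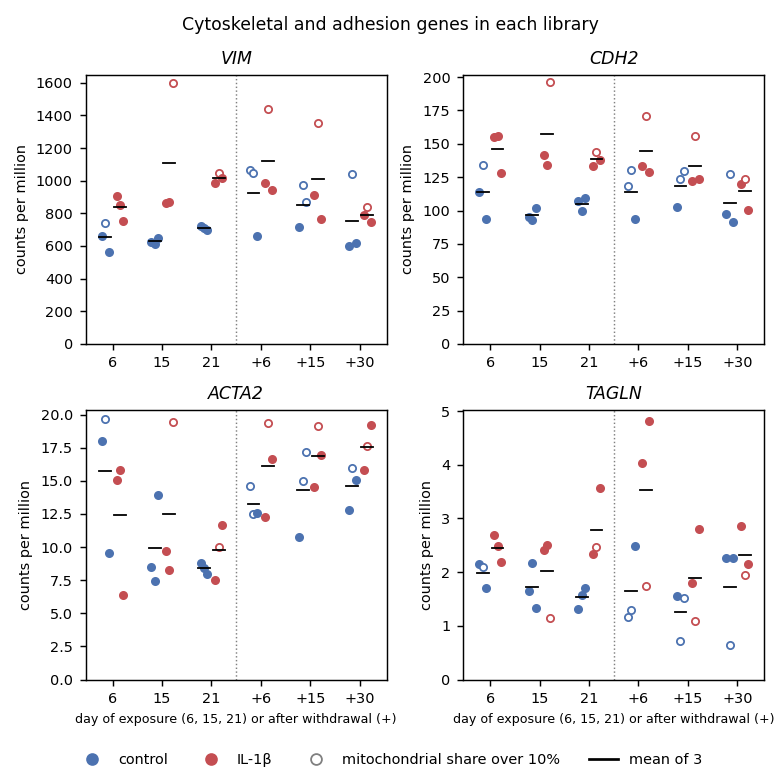
Level in CPM (vertical axes, linear and from 0) of VIM, CDH2, ACTA2 and TAGLN in each library, for control (blue) and IL-1β (red) at the 6 collections (horizontal axis). Open points are libraries with a mitochondrial share over 10%, bars are means of 3; open VIM points of the control lie at 739.9 to 1064 CPM and filled ones at 563.4 to 724.3 CPM.

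Across time, no member passed both thresholds in the difference of its response between day 21 and day 6 by edgeR, none had an unadjusted p under 0.05, and DESeq2 found none either, where 0.0104% of all genes passed. Between day 30 after withdrawal and day 21, the count was 1, FN1, which follows from its choice, where 0.626% of all genes passed. SPARC and TNC had log2 differences of -2.31 and -1.82 with unadjusted p of 0.02 and 0.0271, which did not pass (adjusted p of 0.579 and 0.666). In untreated cells no member differed between the last and the first collection by edgeR or DESeq2, none with an unadjusted p under 0.05, where 0.0104% of all genes did. These comparisons share libraries with those at the single times.

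Related genes were read from 5 lists that hold 94 genes apart from the 10, of which 71 were tested, and the lists were written with earlier results known. At days 6, 15 and 21 of IL-1β, 7, 6 and 8 of the 71 rose past both thresholds and 1, 2 and 2 fell. Over all genes tested, 1.52%, 1.94% and 2.19% rose and 1.25%, 2.3% and 2.06% fell at these times. After withdrawal, 8, 3 and 1 were higher and 1, 1 and 0 lower at days 6, 15 and 30, where 1.08%, 0.594% and 0.433% of all genes were higher and 0.725%, 0.36% and 0.464% lower. The counts of each list that follow hold genes past both thresholds at any of the 6 times. The share of all genes that did so is not given here, and the shares at single times cannot stand in for it. Among the 19 other matricellular genes, 9 were tested and 3 passed at any time. TGFBI, a secreted protein that binds integrins and collagen, rose 1.32 to 1.42 on the log2 scale at the 3 times with IL-1β, and its log2 fold change was 0.43, 0.12 and 0.05 after withdrawal. CCN5, a relative of CCN1 and CCN2 that lacks their C-terminal domain, went the other way, with -1.38 ± 0.42 at day 15 (adjusted p = 0.0458), and FBLN5, an elastic fibre protein, fell by 1.16 ± 0.35 on the log2 scale at day 21 (adjusted p = 0.0389). The median log2 fold change of the 9 was -0.21, -0.79 and -0.59 with IL-1β.

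Of the 20 other contractile and cytoskeletal genes, 17 were tested and 1 passed, PDLIM7, an actin-binding adaptor, at day 21 (1.29 ± 0.39, adjusted p = 0.0403), and the median of the 17 was 0.26, 0.40 and 0.35 with IL-1β. Of the 20 other YAP and TEAD targets, all were tested and 4 passed at any time. NT5E, the ecto-nucleotidase CD73, rose most, with log2 fold changes of 2.61, 3.25 and 2.885 during exposure and 1.85, 1.48 and 0.97 after withdrawal, of which the last did not pass. IGFBP3, a carrier of insulin-like growth factors, fell, with log2 fold changes of -1.29, -2.00 and -2.14 during exposure and of -1.505 and -1.23 at 6 and 15 days after withdrawal. GADD45A passed at day 21 and day 6 after withdrawal (1.18 and 1.06), and F3, the tissue factor that starts coagulation, at day 6 and at day 6 after withdrawal (1.26 and 1.34). The other 16 passed both thresholds at no time.

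Among the receptors and partners of the 10 proteins, 16 of 19 were tested and 3 passed. ITGB3, the integrin subunit that pairs with the α subunit of the vitronectin receptor and binds fibronectin, tenascin-C and CCN proteins, was higher past both thresholds at all 6 times, as TNC was. Its log2 fold change was 1.41, 2.25 and 2.16 with IL-1β and 2.11, 1.59 and 1.97 after withdrawal, the last with a mean of 21.0 ± 5.06 CPM (SD, n = 3) against 5.37 ± 1.21 CPM. SDC4, a heparan sulfate proteoglycan that binds fibronectin, rose 1.62, 1.37 and 1.70 with IL-1β and was 1.30 higher at day 6 after withdrawal. ITGA5, the α subunit of the fibronectin receptor, passed at day 21 and at day 6 after withdrawal (1.49 and 1.29). Of 16 other mesenchymal genes, 9 were tested and 4 passed. LOXL2 and LOX, which crosslink collagen and elastin, passed at day 6 (1.06) and at day 15 (1.26), respectively. FBN1, the fibrillin of microfibrils, passed only at days 6 and 15 after withdrawal (1.35 and 1.27).

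**Figure D5:**
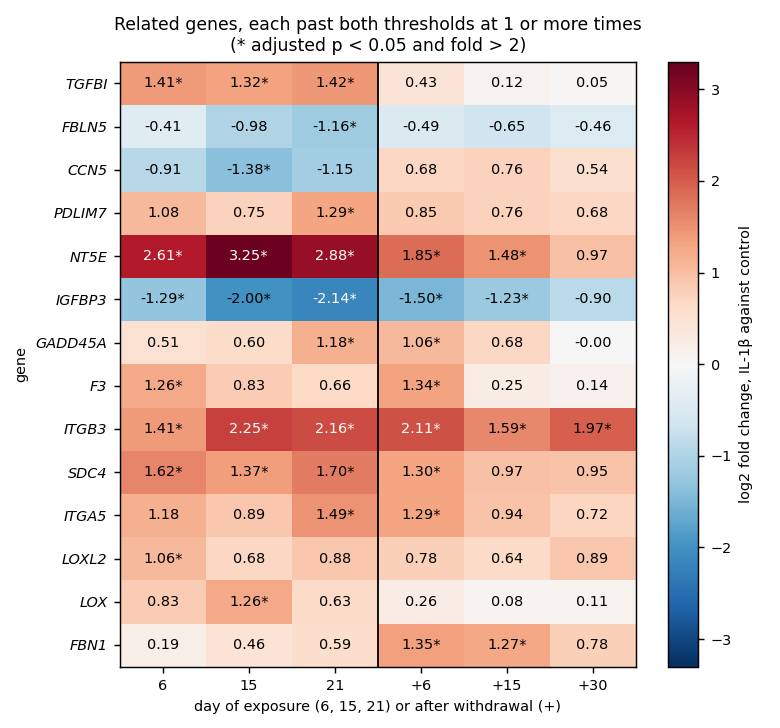
Log2 fold change of IL-1β against control (colour and number) for the 14 related genes named in the text (rows) at the 6 collections (columns, the line marks withdrawal), with asterisks for both thresholds. ITGB3 carries an asterisk at all 6 times, and IGFBP3 and FBLN5 are the rows that are negative at all 6 times.

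The genes whose levels over the 12 group means were most like that of FN1, among 6273 genes, were PLA2G4A, ADAMTS9 and MT1F, with Pearson's r of 0.92, 0.918 and 0.901. Their log2 fold change at day 30 after withdrawal was -1.72, -1.13 and -1.22, a direction that follows from how they were picked. At day 21 it was -0.245, -0.231 and 0.386, where that of FN1 was 0.50. Those most like TNC were TRIO, AFAP1L1 and FRMD6, with r of 0.995, 0.994 and 0.992. Their log2 fold changes were 0.90, 1.68 and 1.43 at day 21 and 0.48, 0.96 and 0.57 at day 30 after withdrawal. Those of TNC were 4.42 and 2.60. These means share libraries and the course of the treatment.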

How the data were processed

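Poly(A) RNA of 36 A549 libraries, made with a stranded KAPA kit, was sequenced by the authors. Per the submitters' processing notes, reads were handled with bcl2fastq 2.17, TopHat2 2.0.14, Bowtie2 2.2.5 and HTSeq 0.6.1 on GRCh37. The authors deposited raw read counts per Ensembl gene, without normalization. The strand setting and annotation release are not given in the sources used here. The 5 summary lines of HTSeq were left out, with 8.48% to 18.6% of reads on no gene and 2.62% to 4.18% ambiguous.

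Groups came from the sample titles. Symbols and exons were matched to GENCODE v44lift37, RPKM used the union of exons, and upstream sequences came from RefSeq. Genes were kept by filterByExpr (19180), scaled by TMM and fitted with edgeR 4.0.16 (quasi-likelihood, 12 groups, 24 residual degrees of freedom, R 4.3.3). P-values were adjusted by Benjamini-Hochberg over all genes tested. The floor was 3 counts per library. Bounds divide the mean of the withdrawn cells by this floor, and neither the counting error nor the spread of the withdrawn libraries enters them. The model was tested on simulated data first. Alternatives were DESeq2 1.42.0 (test or size factors), no filter, separate fits, replicate blocks, mitochondrial share, thresholds and leaving out each replicate.

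The members and lists were chosen with earlier results of these data known. All 10 members were named, and of each related list at most 4 genes, those with the largest absolute log2 fold change at day 21 among genes past both thresholds at 1 or more times, of which 1 gene is counted but not reported here by name. For FN1 and TNC the 3 genes with the highest correlation of group means were also named. Same-numbered control and IL-1β libraries deviated together in every pair at day 21 (correlations of 0.197 to 0.259) and at day 30 after withdrawal (0.31 to 0.464). Every pair did so at days 6 and 15 of exposure too, with lower minima (0.09 and 0.071). Taking the numbers to pair the samples at day 21 and day 30 only was a choice made from the data and not from the labels. At day 30 both replicate 2 libraries were of high mitochondrial share, and whether this made them deviate together was not tested.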

Additional observations from a re-analysis of the deposited data

Results flagged for a closer look

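The response of FN1 differed between day 30 after withdrawal and day 21 of exposure, with a log2 difference of -2.235 (day 30 minus day 21, 3 libraries per group). This rests on the same libraries as the late fall that was named when the genes were chosen, so it is a description and not a separate result.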

How the results depend on the processing

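Of 880 values of the members' log2 fold changes under alternative settings, 818 kept their direction and their side of both thresholds. Of the rest, 36 no longer passed, 11 passed where they had not, and 15 changed sign. Most of the 880 belong to differences that did not pass as reported and so could not stop passing. The 818 thus do not measure how stable the passing differences were. Of the 36 that no longer passed, 25 were among the 240 values with a replicate left out. Leaving out the libraries of 1 replicate number, which drops 12 of the 36 libraries, moved the counts of members past both thresholds to between 1 and 2 at day 6, to 1 at day 15 and to between 1 and 2 at day 21, and to between 0 and 2 at each of days 6, 15 and 30 after withdrawal, against 2, 2, 4, 2, 2 and 2 as reported. The change in response between day 30 after withdrawal and day 21 was past both thresholds in 0 to 1 members, the 1 being FN1. FN1 is also 1 of the 2 members reported at each of days 15 and 30 after withdrawal. These counts follow in part from its choice, and nothing is read from them for FN1. A separate fit of each time point, which also leaves fewer libraries, gave 1 member at day 15 and 0 at days 6, 15 and 30 after withdrawal. With the high-mitochondrial libraries left out there were 4 members at day 6 (CCN1, CCN2, SPARC and TNC) and 1 at day 15. At days 6 and 15 after withdrawal this leaves 1 control library, so that no count is given. With that share as a term there were 5 members at day 6 after withdrawal (CCN1, CCN2, SPARC, THBS1 and TNC). By adjusted p alone, day 15 had 4 members and day 6 after withdrawal also had 4. How many of all genes tested passed under each alternative setting is not given here. Whether the counts of members, or those of the related genes below, moved more than the counts of all genes therefore cannot be judged. Beyond what a setting's smaller number of libraries explains by its construction, the cause of the moved counts was not tested.

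The counts over the related genes, for which the alternatives were chosen after seeing the data, were 8, 8, 10, 9, 4 and 1 as reported. Leaving out a replicate gave 5 to 8 at day 6, 4 to 8 at day 15 and 6 to 9 at day 21, and 2 to 6, 0 to 4 and 0 to 2 at days 6, 15 and 30 after withdrawal. Separate fits gave 4 at day 15 and 0 at days 6, 15 and 30 after withdrawal. The high mitochondrial share as a term gave 2 at day 30 after withdrawal. Counts without the libraries of high share are not given at days 6 and 15 after withdrawal, where 1 control library is left.

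The sign changed as follows. VIM at day 30 after withdrawal was -0.09 to 0.33 when a replicate was left out (-0.03 without replicate 3), ACTA2 at day 15 was -0.14 with the high-mitochondrial libraries left out, and THBS1 at day 6 was -0.12 to 0.35 when a replicate was left out (the former without replicate 3). In the difference of day 21 and day 6, without those libraries CDH2 was -0.13, SPARC -0.37 and CCN2 -0.06, with the share as a term VIM was -0.16, CDH2 -0.19 and CCN2 0.00, and leaving out a replicate gave -0.13 to 0.11 for CDH2, -0.21 to 1.40 for SPARC, -0.03 to 0.45 for CCN2 (all lowest without replicate 2) and -0.24 to 0.23 for CCN1 (highest without replicate 1). ACTA2 between day 30 after withdrawal and day 21 was -0.19 to 0.17, the former without replicate 1.

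With the replicate block within each time point, 3 members passed at day 6 after withdrawal, TAGLN in addition (log2 fold change 1.05, adjusted p = 0.0365). Of the related genes, 13 passed at day 6 of exposure and 2 at day 30 after withdrawal. At day 21 and day 30 after withdrawal, where the numbers were taken to pair the samples, neither block moved a member across both thresholds. The block within each time point brought the adjusted p of CDH2 and TAGLN at day 21 and of CCN1 at day 30 under 0.05. At days 6 and 15 of exposure and after withdrawal the lowest correlation of same-numbered libraries was 0.09, 0.071, -0.114 and -0.336. Few counts limit SPARC, TAGLN and the controls of TNC, and 3 libraries per group limit all values.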
